A study of Mus musculus with 3 samples.

Results

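The 80 genes described here encode the proteins of the cytosolic ribosome in the mouse. They were chosen by symbol: Rpl or Rps followed by a number, with an optional a, x or l, or one of Rplp0, Rplp1, Rplp2 and Rpsa, provided that the gene has at least 1 transcript annotated as protein coding. Of 55536 annotated genes, of which 22028 are protein coding, 80 met this rule. They comprise 46 genes named for the large subunit, 31 for the small subunit and 3 for the stalk of the large subunit, and they lie on 19 chromosomes. The rule itself uses no measured value.

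RNA was taken from the chromatin fraction of bone-marrow-derived macrophages (BMDM), primary cells of C57BL/6J mice with no other genotype named, after 20 min with 100 ng/ml lipid A. Lipid A, the membrane anchor of bacterial lipopolysaccharide, is sensed by macrophages through TLR4. Ribosomal RNA was depleted, and 3 libraries were made, labelled biological replicates 1, 2 and 3, from 1 µg, 250 ng and 500 ng of RNA. All 3 had the same treatment and carry 1 donor entry with separate biosamples, and whether the cells were from different animals cannot be read from the labels. No untreated group was analysed here, so levels are described and no response to lipid A, and no test between groups was made.

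The cytosolic ribosome is built from a small subunit, which reads the messenger RNA, and a large subunit, which joins the amino acids, and nearly every one of its proteins is present in a single copy per ribosome. Messenger RNAs of these proteins typically start with a run of pyrimidines, the 5′ terminal oligopyrimidine tract, through which mTOR signalling controls their translation. Many of the genes carry small nucleolar RNAs (snoRNAs) in their introns, and the genome holds many processed pseudogenes copied from their messenger RNAs. Chromatin-fraction RNA is enriched for transcripts that are still being made or have not yet been released.

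Runs of pyrimidines around the annotated start are shown first, because the pyrimidine tract is the sequence feature these genes are best known to share. RefSeq start sites on GRCm38.p6 were found for 60 of the 80 genes. In a window of 20 bases before to 10 bases after the start, the longest run made only of C and T on the gene's own strand was taken, using the start with the longest run where a gene had several. A run counted in this way can lie partly or wholly before the annotated start, as in Rpl39. It is therefore not by itself the terminal tract of the messenger RNA. A run of 8 or more bases was present in 27 of the 60 genes (45.0%), against 14.5% of 27025 gene symbols with a window of the same length. The 3 longest runs and the gene with the highest level, Rpl10, follow, with the run in capitals.
Rpl7a, chr2:26910787-26910816, plus strand: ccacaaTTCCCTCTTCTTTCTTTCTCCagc
Rpl34, chr3:130730328-130730357, minus strand: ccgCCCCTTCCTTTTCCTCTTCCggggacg
Rpl35, chr2:39005122-39005151, minus strand: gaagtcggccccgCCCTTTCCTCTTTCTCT
Rpl10, chrX:74270796-74270825, plus strand: CTatggttgttacagtggaagataggccgc
The runs of Rpl7a, Rpl34 and Rpl35 were 21, 20 and 17 bases long, while no run in the Rpl10 window was longer than 2. The median level of the 27 genes with a run of 8 or more was 7.96, 12.4 and 14.2 TPM, a transcript level scaled for length and for the total of the file, in replicates 1, 2 and 3, and that of the 33 genes with a shorter run was 6.88, 10.1 and 12.1 TPM. The first median was the higher in each library. That difference is small beside the shift of both medians between libraries, but this shift does not measure its error, and the difference was not tested.

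The libraries held 16317439, 16245280 and 12439931 expected counts in replicates 1, 2 and 3. All 8 macrophage markers (Adgre1, Csf1r, Cd68, Itgam, Lyz2, Mertk, Fcgr1 and Mrc1) reached 1 TPM in each library, and their median was 85.8 ± 14.6 TPM (SD, n = 3). None of the markers fixed for T cells, B cells, neutrophils, erythroid cells or fibroblasts reached that level in every library, and the medians of these lists were at most 0.0983 TPM. Cd3e and Ly6g were listed at 0 in all 3. In a second set of tables, described below, the list medians were higher for T cells (1.99 TPM), fibroblasts (0.592 TPM) and neutrophils (0.357 TPM), and 2 T cell markers and 1 fibroblast marker passed 1 TPM in every library. The means there were 13.1 ± 5.24 TPM for Cd3d, 2.83 ± 0.804 TPM for Cd8a and 1.57 ± 0.510 TPM for Col1a1. TPM is scaled over all entries of a file, and snoRNA genes took 55.7%, 46.4% and 40.4% of it in replicates 1, 2 and 3.

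Transcripts of the ribosomal protein genes were found on chromatin at a level close to that of other expressed coding genes. The median over the 80 genes was 7.03, 10 and 12.5 TPM in replicates 1, 2 and 3 (mean 9.84 ± 2.73 TPM, SD, n = 3), and the median over coding genes at 1 TPM or more in every library was 6.96, 8.15 and 11.9 TPM. The genes together held 0.0988%, 0.103% and 0.108% of the expected counts, with 95% Wilson intervals of 0.0973% to 0.1003%, 0.101% to 0.104% and 0.106% to 0.110%, which cover counting error only. Replicate 1 had the lowest TPM for 68 of the 76 genes that passed 1 TPM in every library, and replicate 3 the highest for 64. The median over coding genes given above rose in the same order. The share of coding genes with this order is not given here, so the counts are not read as a trait of this set. The share of TPM taken by snoRNAs was highest in replicate 1 and lowest in replicate 3, and its part in the order of the libraries was not tested.

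At the limit of 1 TPM in every library, 76 of the 80 genes were detected, against 40.6% of all protein-coding genes. The 4 others were Rpl3l, Rpl10l, Rpl39l and Rps27l, each a paralogue of a core gene. Mean levels reached 5 TPM or more in 65 genes, 10 TPM or more in 40, 20 TPM or more in 18 and 50 TPM or more in 3. Among the 76, the highest mean was 51.8 times the lowest, and over all 80 the upper quartile was 3.08 times the lower. In every library 35 genes lay above the median of detected coding genes and 30 lay below it.

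**Figure D1:**
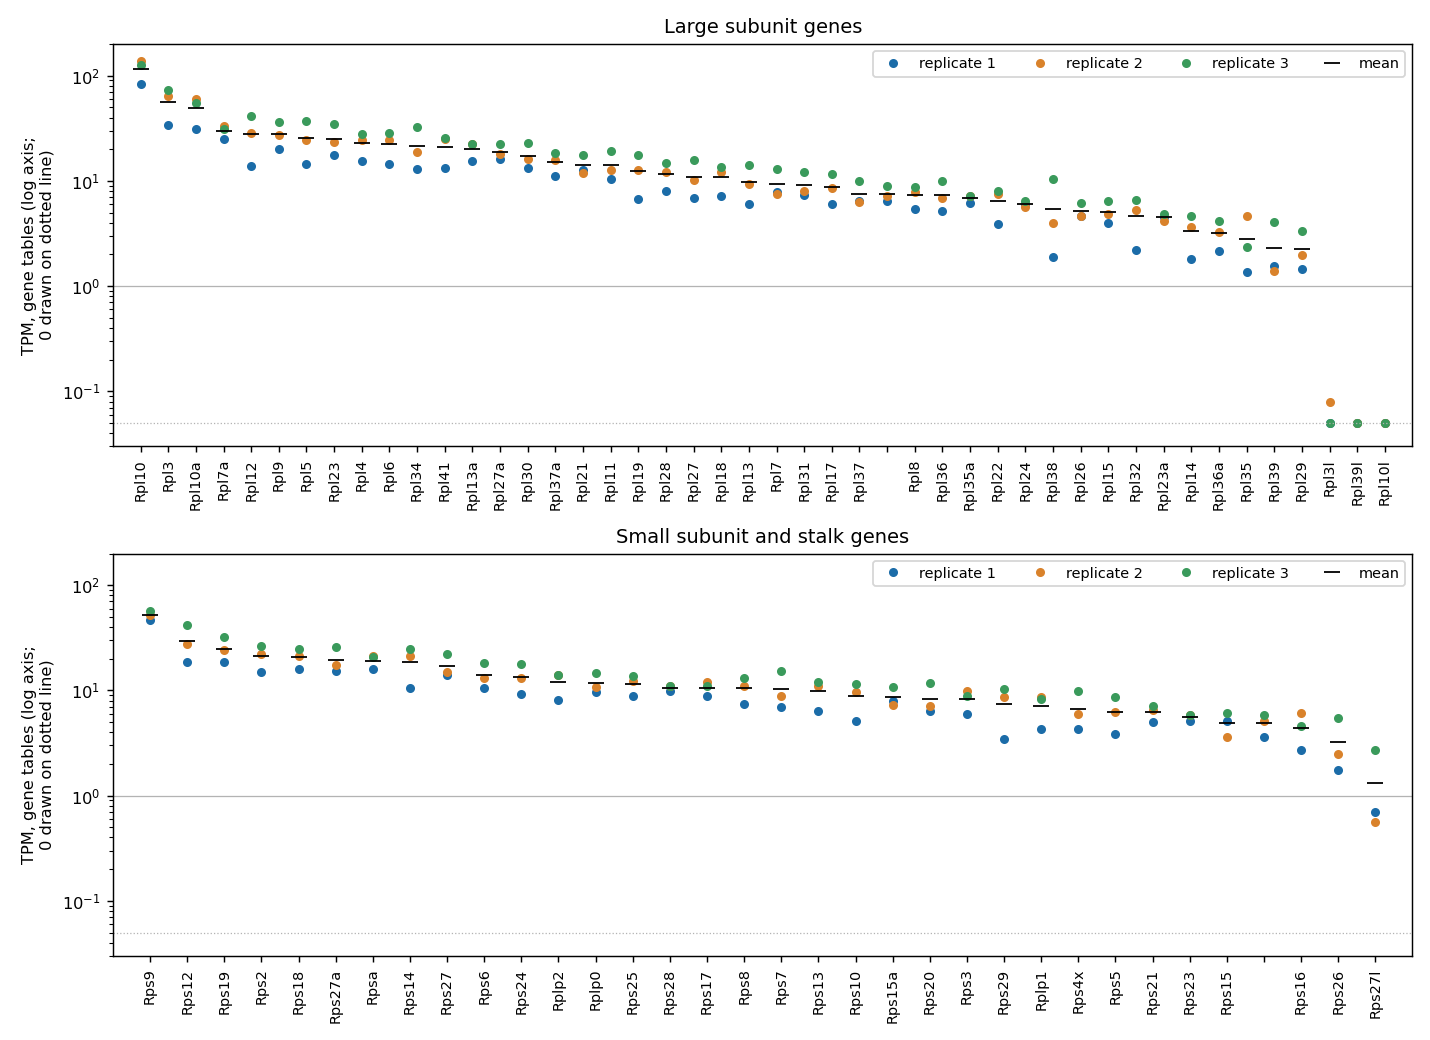
TPM of the 80 genes in the gene tables on a log axis, large subunit above, small subunit and stalk below, ordered by the mean of 3 libraries (black dashes); values of 0 are drawn on the dotted line and the grey line marks 1 TPM. Points without a symbol are genes not named here. Mean levels run from 117 TPM for Rpl10, which stands apart from Rpl3 at 56.8 TPM, to 2.25 TPM for Rpl29, and the paralogues Rpl3l, Rpl39l, Rpl10l and Rps27l stand at the low end.

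In the large subunit, Rpl10, whose protein is added late and takes part in joining the subunits, was the highest of all at 83.4, 139 and 128 TPM (117 ± 29.3 TPM, SD, n = 3). Rpl3, which lies close to the peptidyl transferase centre, had 34.2, 63.9 and 72.3 TPM (56.8 ± 20.0). Rpl10a, the protein also called uL1 at the exit side, had 30.9, 60.5 and 55.2 TPM (48.9 ± 15.8). In each of these genes replicate 1 was the lowest library. In replicates 1, 2 and 3, Rpl10 exceeded every other ribosomal protein gene, and its lowest value was above the highest value of Rpl3.

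Rpl7a had 24.97, 33.5 and 31.4 TPM (30.0 ± 4.45) and Rpl12, a protein at the base of the stalk, 13.8, 28.4 and 41.7 TPM (27.97 ± 13.9). These genes follow Rpl10a in the order, and their ranges overlap. In TPM, Rpl12 was the most variable gene among the 40 with a mean of 10 TPM or more, with a coefficient of variation of 49.9%. Rpl34 and Rpl5, which binds the 5S ribosomal RNA, came next at 46.4% and 44.8%. The smallest coefficients were those of Rps28 (6.37%), Rps9 (9.60%) and Rpl7a (14.9%). These coefficients include the general difference in TPM between libraries. In counts scaled by TMM factors, described below, Rpl12 deviated from its mean by -0.47, 0.30 and 0.17 log2 units in replicates 1, 2 and 3. Rpl34 deviated by only -0.11, 0.004 and 0.11, but Rps28 by 0.18, 0.22 and -0.40. The order of variability thus depends on the scaling.

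The lowest large-subunit genes were paralogues known mainly from single tissues. Rpl10l, a copy of Rpl10 used in the testis, was listed at 0 TPM in every library, and so was Rpl39l, a testis paralogue of Rpl39. Rpl3l, the paralogue used in heart and skeletal muscle, was listed at 0, 0.08 and 0 TPM with 0, 2 and 0 counts. A count of 0 allows up to 3 counts, so low levels of these genes were not detectable at this depth. Among the core genes the lowest were Rpl29 (1.46, 1.96 and 3.34 TPM), Rpl39 (1.54, 1.38 and 4.06 TPM) and Rpl35 (1.36, 4.64 and 2.34 TPM), whose ranges overlap.

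In the small subunit, Rps9 was the highest at 47.1, 52.2 and 57.1 TPM (52.1 ± 5.01 TPM, SD, n = 3). Rps12 had 18.6, 27.7 and 41.8 TPM (29.4 ± 11.7), and Rps19, mutated in Diamond-Blackfan anaemia, 18.6, 24.2 and 31.9 TPM (24.9 ± 6.70). The lowest value of Rps9 was above the highest of Rps12 and of Rps19. The ranges of Rps12 and Rps19 overlap, and Rps12 was the higher in every library, by little in replicate 1 (18.58 against 18.55 TPM). Rps2 (21.2 ± 5.98 TPM) and Rps18 (20.6 ± 4.45 TPM) followed. Each was below Rps19 in every library, though the ranges over libraries overlap. In the second set of tables, described below, Rps19 was above Rps12 in every library. It had 42.6, 41.8 and 81.85 TPM there, against 20.4, 19.6 and 27.3 TPM for Rps12. In replicate 3 it was also above Rps9, at 71.8 TPM, so the order of these genes depends on the estimate.

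The lowest small-subunit genes were Rps16 with 2.69, 6.05 and 4.55 TPM, Rps26 with 1.76, 2.50 and 5.45 TPM, and Rps27l with 0.70, 0.56 and 2.73 TPM. Rps27l, a paralogue of Rps27 known as a p53 target, rested on 6, 3 and 7 counts. In the second set of tables, described below, Rps27l had 5.07, 3.74 and 12.5 TPM and passed 1 TPM in every library. Rps26 had 2.88, 4.30 and 5.49 TPM there, so the place of Rps27l as the lowest depends on the estimate. The stalk genes, whose acidic proteins recruit translation factors, were at 11.7 ± 2.52 TPM (Rplp0), 7.07 ± 2.41 TPM (Rplp1) and 12.02 ± 3.31 TPM (Rplp2). Rplp1 was the lowest of the 3 in every library.

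The subunits did not differ beyond the spread between libraries. The median was 9.65 ± 3.22 TPM over the 46 large-subunit genes, 10.1 ± 2.33 TPM over the 31 small-subunit genes and 11.0 ± 2.89 TPM over the 3 stalk genes (SD, n = 3). Large minus small subunit was -0.11, -0.31 and 0.17 in replicates 1, 2 and 3 on the log2(TPM + 0.1) scale, so the direction was not the same in every library, and without replicate 2 the mean was 0.03.

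Genes of related function that the symbol rule leaves out were measured for comparison. Fau, a small-subunit protein made as a ubiquitin-like fusion, had 8.51, 20.6 and 19.6 TPM, and Rack1, a scaffold on the small subunit, 17.6, 27.3 and 33.7 TPM. Both lay within the range of the core genes. Of the further paralogues, Rpl7l1 (5.97 ± 2.44 TPM), Rpl22l1 (5.15 ± 1.11 TPM) and Rpl36al (1.95 ± 1.02 TPM) passed 1 TPM in every library. Rps4l and Rps27rt, at 0.0667 and 0.23 TPM, rested on 3 counts and 2 counts in replicate 2 and none in the others.

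A list of 19 other genes whose messenger RNAs are grouped with the terminal oligopyrimidine class was also measured. Most of them are translation factors, but the list also holds others, such as Npm1, Nap1l1, Hnrnpa1 and Vim. All 19 passed 1 TPM in each library (median 15.3 ± 4.65 TPM). Eef1a1, an elongation factor, was the highest of them at 310 ± 58.5 TPM, followed by Vim (149 ± 19.3 TPM), a filament protein whose messenger RNA is listed with this class, and Pabpc1 (68.7 ± 8.39 TPM), the poly(A) binding protein. Of 30 ribosome biogenesis genes 28 passed, with a median of 5.86 ± 1.64 TPM, led by Ubtf (29.7 ± 6.30 TPM), Ncl (28.5 ± 6.54 TPM) and Wdr43 (28.4 ± 7.14 TPM). Of 78 mitochondrial ribosomal protein genes 54 passed, with a median of 2.32 ± 0.875 TPM, and the highest were Mrpl24 (25.7 ± 11.3 TPM), Mrps9 (20.9 ± 6.53 TPM) and Mrps5 (15.2 ± 6.43 TPM). Cytosolic minus mitochondrial medians were 2.03, 2.25 and 1.88 on the log2(TPM + 0.1) scale (2.06 ± 0.19), and every library had the same direction.

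Most of the TPM of the ribosomal protein genes was assigned to isoforms that carry no complete reading frame. The annotation lists 484 transcripts for the 80 genes: 226 protein coding, 172 with a retained intron, 62 processed transcripts without a reading frame and 24 marked for nonsense-mediated decay. Of the summed TPM, 56.5% ± 3.03 (SD, n = 3) lay in retained-intron isoforms, 31.2% ± 3.07 in coding ones, 10.7% ± 0.706 in processed transcripts and 1.68% ± 0.460 in those marked for decay. Counting reads over annotated exons leaves introns visible only through such isoforms, so these shares are the authors' assignment of reads and not a direct count of introns.

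The noncoding share, the percent of a gene's TPM in retained-intron and processed-transcript isoforms, was defined for the 69 genes that have such an isoform and passed 1 TPM in every library. Its median was 68.2%, 70.0% and 65.9% in replicates 1, 2 and 3 (68.0% ± 2.02, SD, n = 3), against 48.1% ± 1.59 over 7454 protein-coding genes chosen in the same way and 52.5% ± 4.87 over 48 mitochondrial ribosomal protein genes. It was over 50% in every library in 47 of the 69 genes, against 37.0% of the coding genes, and under 50% in every library in 14. Both sets had a median of 3 noncoding isoforms per gene. With 2 or 3 such isoforms the median was 69.9% in 35 ribosomal protein genes and 45.5% in 3006 coding genes. With 4 or more it was 73.3% in 25 and 60.6% in 2726, and with a single one 25.2% in 9 and 26.2% in 1722.

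**Figure D2:**
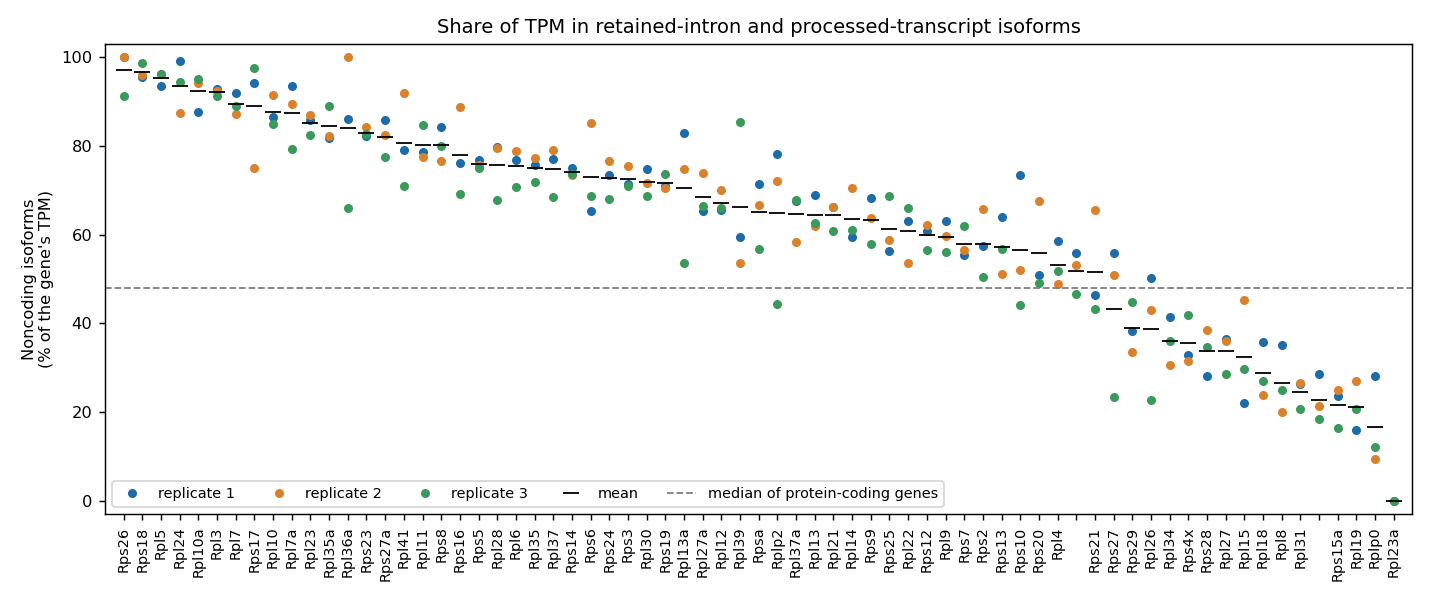
Percent of each gene's TPM in retained-intron and processed-transcript isoforms (y axis) for the 69 genes with such an isoform and 1 TPM or more in every library (x axis), with points per library and the mean as a black dash; the dashed line is the median of protein-coding genes, 48.1%, and genes not named here have no symbol. Most of the genes lie above the line, from Rps26 at 97.1% on the left to Rpl23a at 0% on the right.

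The highest noncoding shares belonged to genes of both subunits. Rps26 had 100%, 100% and 91.2%, Rps18 95.5%, 96.0% and 98.8%, and Rpl5 93.4%, 96.2% and 96.1%. Rpl24 (93.6% ± 5.96) and Rpl10a (92.4% ± 4.07) followed. Rps26 and Rpl24 rested on few reads, at most 41.9 and 38.0 expected counts in a library. Among the genes with the highest levels, Rpl10 (87.6% ± 3.44), Rpl3 (92.2% ± 0.902) and Rpl7a (87.4% ± 7.35) also lay mostly in noncoding isoforms. A single retained-intron isoform of Rpl10 had 29.4, 62.3 and 40.4 TPM.

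At the other end, Rpl23a was listed at 0% in every library, with 46.4, 27.5 and 21.2 counts. Rplp0 had 28.1%, 9.34% and 12.1%, and Rpl19 15.9%, 27.0% and 20.7%. In the second set of tables described below Rplp0 was again low (16.7% ± 6.21), while Rpl19 was at 44.7% ± 3.15. These genes kept most of their TPM in coding isoforms in the gene tables, so the set is not uniform.

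The genes that host snoRNAs had higher levels than the others. An annotated snoRNA gene lay on the same strand inside 29 of the 80 genes, 56 snoRNA genes in all, and 9 genes held 3 or more. The median level of the 29 hosts was 12.6, 13.9 and 17.7 TPM in replicates 1, 2 and 3, and that of the 51 other genes 6.80, 8.68 and 10.9 TPM. Hosts minus others was 0.88, 0.67 and 0.70 on the log2(TPM + 0.1) scale (0.75 ± 0.11, SD, n = 3). The host value lay above the other value in each library.

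**Figure D3:**
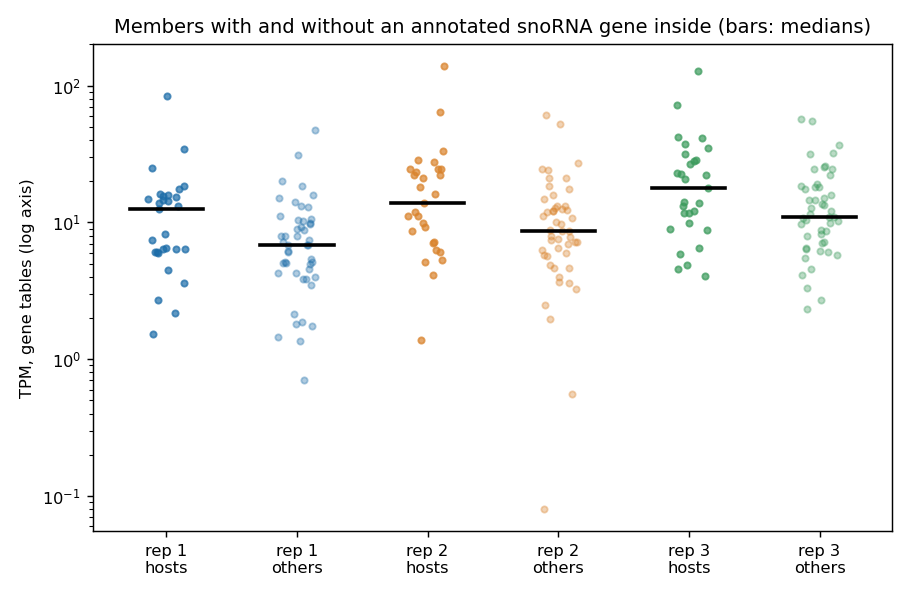
TPM on a log axis for the 29 snoRNA host genes and the 51 other ribosomal protein genes in each library, with 1 point per gene, medians as black bars and values of 0 not drawn. The host median is the higher one in every library, 12.6 against 6.80 TPM in replicate 1, and the clouds of points overlap.

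Reads of the snoRNAs themselves can enter the host's value, because 26 of the 56 snoRNA genes lie inside an exon of a host isoform, in 22 hosts. When the TPM of isoforms that cover a snoRNA was left out, a choice made after seeing the data, hosts minus others was 0.40 ± 0.13. Only hosts lose TPM by this step, so the difference could not rise, and its fall does not show how many snoRNA reads the hosts held. In the second set of tables, with all isoforms kept, hosts minus others was 0.27 ± 0.11. Isoforms that cover a snoRNA held over 50% of the TPM in every library in 2 hosts, Rps13 (77.2% ± 6.33) and Rps3 (55.9% ± 2.75). The noncoding share was 69.7% ± 3.25 in the hosts and 65.7% ± 0.950 in the other genes. Hosts minus others in that share was 4.83, 7.08 and -0.05 percentage points, so it had no single direction.

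Most snoRNAs inside these genes were listed without counts. Of the 56, 37 had 0 counts in every library and 11 had counts in all 3. The 11 were among the longer of these snoRNA genes, and none of the shortest had counts. Snora62, one of the longer ones, was also at 0. AF357399 inside Rps16 had 1 count in replicate 2 and was listed at 0 TPM. How length and the assignment of reads shaped the zeros was not tested, so 0 counts need not mean that a snoRNA was absent. Snord15b, a box C/D snoRNA inside Rps3 (chromosome 7, 99479563 to 99479707, minus strand), had 11789, 2976 and 2088 expected counts, while Rps3 itself had 369, 470 and 277. Snord15a, which lies in Rps3 outside its annotated exons, had 2465, 908 and 536. In TPM, which is scaled for length as well as for the total of the file, Snord15b was at 59854, 38618 and 43655. Snord15a was at 10903, 10225 and 9711, so their lowest libraries differ. Rps3 had 6.00, 9.90 and 8.91 TPM and was lowest in replicate 1. Replicates 1 and 2 had nearly equal totals, 16317439 and 16245280 expected counts, yet Snord15b differed between them more in counts than in TPM. The TPM of such short genes thus depends on more than library size.

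Near-identical copies limit how far a read can be placed in one of these genes. The coding sequence of each gene was compared with all annotated transcripts, and a copy was called near-identical at 95% identity or more over at least 80% of the coding sequence. By that rule 71 of the 80 genes had at least 1 pseudogene copy, 532 distinct pseudogenes in all, and 9 had none. Rpl21 had the most with 56, followed by Rpl7a with 31 and Rpl29 with 26. Levels showed little relation to the number of copies (Spearman's rho 0.08 across 76 genes, a description over genes that share libraries).

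Shown over 60 bases of the coding sequence are the 2 pseudogenes with the most reads among those aligned to their parent without gaps, a copy of the highly expressed Rpl3, and a copy inside a coding gene, each beside its parent and chosen after their values were seen. Differing bases are in capitals, because a read without such a base fits both. Positions are counted from 1 at the A of the start codon, in GENCODE M21 transcripts. The first pair spans positions 306 to 365 of 480 bases, the second 343 to 402 of 495, the third 27 to 86 of 1209 and the fourth 386 to 445 of 480.
Rpl21: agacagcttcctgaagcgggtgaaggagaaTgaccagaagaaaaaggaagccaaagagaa
Gm10163: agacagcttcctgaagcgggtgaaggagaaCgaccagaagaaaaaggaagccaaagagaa
Rpl12: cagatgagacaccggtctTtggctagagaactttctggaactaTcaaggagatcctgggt
Gm11425: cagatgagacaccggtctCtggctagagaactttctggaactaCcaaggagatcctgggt
Rpl3: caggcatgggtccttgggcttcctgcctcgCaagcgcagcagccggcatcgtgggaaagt
Rpl3-ps1: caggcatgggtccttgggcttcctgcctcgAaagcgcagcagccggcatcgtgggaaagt
Rpl21: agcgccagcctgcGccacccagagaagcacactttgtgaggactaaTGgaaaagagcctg
BC004004: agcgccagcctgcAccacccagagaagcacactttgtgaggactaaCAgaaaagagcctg
Over the whole aligned coding sequence Gm10163 differs from Rpl21 at 2 bases, Gm11425 from Rpl12 at 4, Rpl3-ps1 from Rpl3 at 2 and BC004004 from Rpl21 at 7.

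Pseudogenes held a measurable part of the reads. The 532 pseudogenes together had 2673, 1783 and 1853 expected counts in replicates 1, 2 and 3, equal to 16.6%, 10.7% and 13.8% of the counts of the 80 genes. Of the 532, 317 had 0 counts in every library, and 80 had at least 3 in each. Gm10163, the Rpl21 pseudogene shown above (chromosome 9, 88390837 to 88391317), had 118, 123 and 186 counts and 31.8 ± 21.9 TPM, against 14.1 ± 3.15 TPM for Rpl21. Gm12630, a copy of Rpl7a, had 180, 115 and 131 counts, and Gm11425, the copy of Rpl12, had 143, 126 and 71.6.

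For 5 genes, the pseudogenes together held more counts than the gene in every library in the gene tables. They included Rpl23a, where pseudogenes had 70.9% ± 6.57 of the counts of gene and pseudogenes together, Rpl36 (63.2% ± 2.33), Rpl21 (62.8% ± 2.22) and Rps7 (54.8% ± 2.74) (SD, n = 3). Rpl7a followed at 53.1% ± 6.96, with fewer pseudogene counts than gene counts in replicate 2 alone. In the second set of tables described below, the share was 76.95% ± 2.40 for Rpl23a and 58.5% ± 1.89 for Rpl21. It was lower there for Rpl36 (42.3% ± 2.70), Rps7 (36.1% ± 3.45) and Rpl7a (48.7% ± 7.41). For Rpl35 it was 46.5% ± 22.8 in the gene tables and 67.7% ± 7.92 in the second. Which genes fall below their pseudogenes thus depends on the estimate, and the levels of these genes are uncertain. By contrast, the share in the gene tables was 1.85% ± 1.51 for Rpl10, 1.68% ± 1.27 for Rpl3 and 0.551% ± 0.166 for Rps9, and Rps19 had no such copy.

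**Figure D4:**
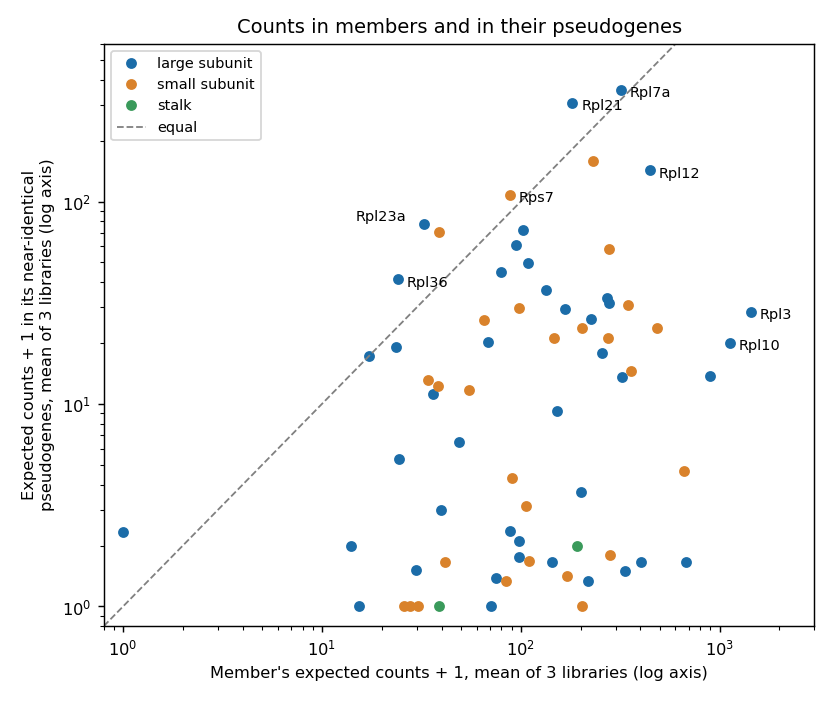
Expected counts + 1 of each gene (x axis) and of its near-identical pseudogenes summed (y axis), means of 3 libraries on log axes, 1 point per gene with such a copy, coloured by subunit. Points above the dashed line of equality include Rpl23a, Rpl36, Rpl21, Rps7 and Rpl7a, while Rpl10 and Rpl3 lie far to its right.

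The pseudogenes with reads were mostly placed inside other genes. Of the 532, 63 lie within a longer coding or noncoding gene on the same strand, 135 within one on the opposite strand only, and 334 within none. At least 3 counts in every library were found in 23 of the 63 (36.5%), 45 of the 135 (33.3%) and 12 of the 334 (3.59%). Pseudogenes inside another gene on the same strand held 28.3% ± 3.15 of the pseudogene counts, those inside one on the opposite strand 52.1% ± 3.80 and the rest 19.6% ± 2.64. Gm16238, a copy of Rpl19, had 86, 53 and 28 counts and lies inside Alpk1, which was at 24.3 TPM, and Gm10163 lies opposite to Snx14, which was at 15.8 TPM. Gm11425 lies inside no such gene. The use of strand in counting is not stated in the labels or headers, so reads of a pseudogene, of its parent gene and of the gene around it cannot be told apart.

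A further 17 near-identical copies, of 15 genes, are annotated as something other than a pseudogene. BC004004, a coding gene with an isoform that contains a copy of the Rpl21 coding sequence, had 527, 409 and 467 counts over all its isoforms. Rpl21 itself had 231, 150 and 161. How many of the BC004004 counts belong to the isoform with the copy is not given here. Rpl10-ps3, whose sequence is identical to the coding sequence of Rpl10, had 0, 11.6 and 14.6 counts. Rps27rt, identical to Rps27 over the coding sequence, had 0, 2 and 0. In addition, 21 of the 80 genes overlap a gene on the opposite strand and 9 a gene on the same strand other than a snoRNA.

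Each deposited TPM also comes with a credibility interval, whose level the headers do not state. In replicate 1 the bounds were 75.9 and 85.7 TPM for Rpl10, and 0.685 and 3.18 TPM for Rpl35. The relative width is the upper minus the lower bound divided by the posterior mean TPM of the same table. The median relative width was 0.449 ± 0.031 over the 76 detected genes and 0.331 ± 0.022 over 8942 detected coding genes. Rpl35 (1.29), Rpl39 (0.987) and Rpl38 (0.934) had the widest, and all 3 had few counts, at most 24.6 in a library. The width was 0.458 ± 0.025 in 70 genes with a near-identical pseudogene and 0.388 ± 0.029 in 6 without.

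A second deposited set of transcript tables, which the authors estimated directly from read files and not from alignments, per the archive's listing, allowed the levels to be compared between estimates. Summed per gene, the median of the 80 genes was 15.5, 13.2 and 21.04 TPM in these tables (16.6 ± 4.05 TPM, SD, n = 3), and 77 of the 80 passed 1 TPM in every library, against 51.6% of coding genes. Coding genes held 30.9%, 26.0% and 40.5% of TPM there, and 15.8%, 18.1% and 24.7% in the gene tables. Before any rescaling, 58 of the 80 genes were higher in the second tables in every library and 2 lower. The median of the 8942 coding genes detected in the gene tables was also higher there in every library, at 13.8, 12.2 and 20.1 TPM. When both were rescaled to the same total over coding genes, second minus gene tables had a median of -0.12 ± 0.06 on the log2 scale. After this step 23 of the 76 genes were higher in every library and 34 lower. The matching shares of all coding genes, before and after rescaling, are not given here, so these counts are not read as a trait of this set. Across the 76 genes the log2 levels had a Pearson's r of 0.84 and a Spearman's rho of 0.83, as a description over genes of the same libraries.

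**Figure D5:**
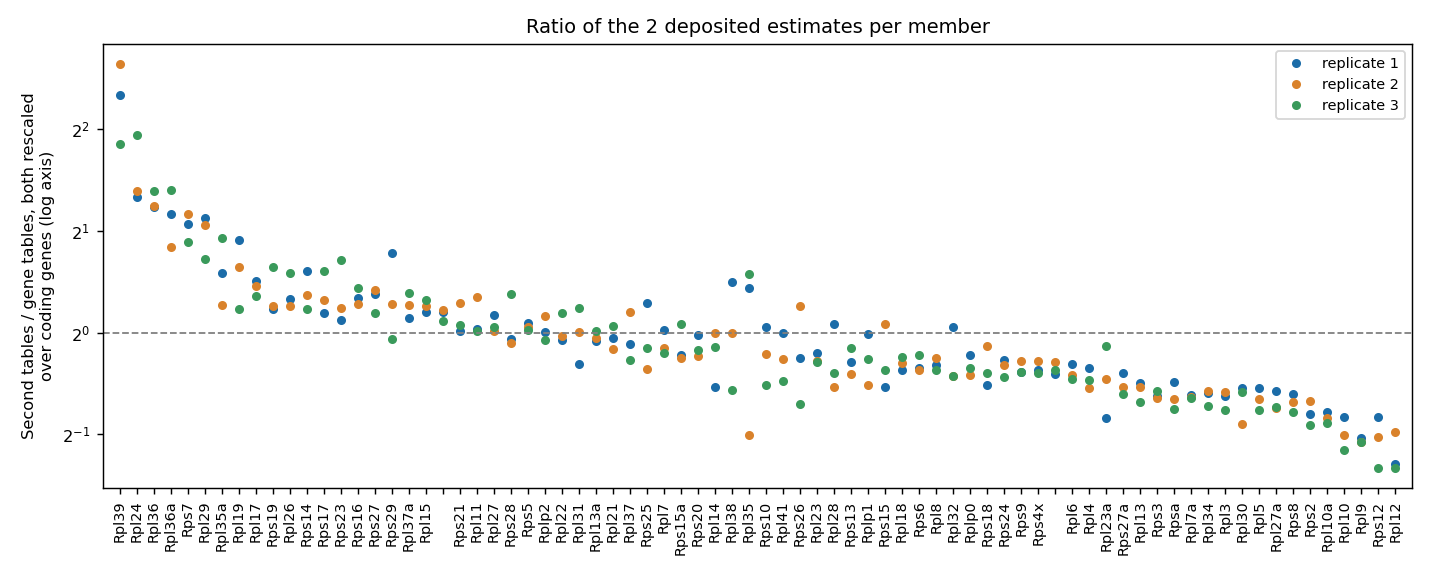
Ratio of the second tables to the gene tables after both were rescaled to the same total over coding genes (y axis, log2-spaced), per gene and library, for the 76 genes at 1 TPM or more in every library, ordered by the mean ratio, with no symbol for genes not named here. Rpl39 and Rpl24 stand above the rest at 4.63 and 2.91, and Rpl12, Rps12 and Rpl9 are lowest, at 0.442, 0.475 and 0.479.

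Single genes differed far more than the median. Rpl39 had 1.54, 1.38 and 4.06 TPM in the gene tables and 15.3, 12.4 and 24.2 TPM in the second tables, a rescaled ratio of 5.07, 6.24 and 3.63. Rpl24 had a rescaled ratio of 2.52, 2.62 and 3.86, and Rpl36 of 2.36, 2.37 and 2.64. At the low end Rpl12 had 0.410, 0.507 and 0.398, Rps12 0.563, 0.491 and 0.399, and Rpl9 0.489, 0.475 and 0.474. Every value of the first 3 genes was above 2 and every value of the last 3 was below 0.6, while the order within each trio differed between libraries. The log2 ratio without rescaling had a Spearman's rho of -0.48 with log2 effective length across the 76 genes, so shorter genes tended to be higher in the second tables.

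TMM factors were computed over the 13985 genes that passed a filter on low counts, and counts were scaled to the library size as log2 CPM. The median of the 80 genes then deviated from its mean over libraries by 0.006, 0.158 and -0.164 in replicates 1, 2 and 3, an SD of 0.161. Of 75 genes with at least 10 counts in every library, 56 were above their own mean in replicate 2 (74.7%), against 52.3% of 10863 coding genes. In replicate 1, 31 were above it (41.3%, against 44.4% of coding genes), and in replicate 3, 24 (32.0%, against 49.2%). With library totals in place of TMM factors the deviations were 0.033, -0.055 and 0.022. Replicate 2 was thus the highest library under TMM and the lowest under library totals, so the libraries have no order that holds under both scalings.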

How the data were processed

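All 3 libraries of chromatin-fraction RNA form 1 group. Reads were assigned to annotation M21 on mm10 by the authors, separately for each replicate, per the file headers and a text listing. The tool names, aligner and strand setting were not given in the sources used here. Expected counts and TPM per gene and transcript were deposited by the authors in one set of tables, and estimated counts and TPM per transcript in a second. TPM is scaled over all entries, so snoRNAs with high TPM lower the TPM of other genes. The deposited tables also hold a signal pair, the bounds of a TPM credibility interval.

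All 55536 gene identifiers matched GENCODE M21 (GRCm38, the build mm10 names), the source of types, coordinates and transcript sequences; start-site sequences came from RefSeq, GRCm38.p6. Coding sequences, the longest complete one per gene, were compared with all transcripts by blastn 2.17.0. The 3 symbols Rpl32l, Rpl6l and Rps4l match the symbol rule but have no coding transcript. Levels are medians over genes in each library, with log2(TPM + 0.1) for differences. Expected counts were scaled with TMM factors (edgeR 4.0.16, R 4.3.3) or DESeq2 1.42.0 size factors, with no count test, since there is 1 group. Totals were 12439931 to 16317439 expected counts and 21107490 to 27754284 in the second tables; a count of 0 allows 3 counts, and intervals cover counting error only. Python 3.11.15 was used, and the summaries were tested on simulated data.

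Members and gene lists were chosen with earlier results of these data known. Genes named are the 5 highest and 3 lowest of each subunit, the stalk, related genes outside the rule, the extremes of noncoding share, table ratio, pseudogene number, interval width and coefficient of variation, and the 3 highest of each comparison list; Rps7, Rps3, Rps13 and the pseudogenes and snoRNAs were added after their values were seen. Some genes that enter the counts and medians are not reported here by name.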

Additional observations from a re-analysis of the deposited data

How the results depend on the processing

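The median level was 9.84 TPM, 16.6 TPM in the second tables and 50.2 TPM after rescaling over coding genes. Of 32 named genes, 17 moved by more than 1 SD in the second tables and 6 with posterior means. With the rescaling 30 moved, but it multiplies all genes of a library by a common factor. Rpl10l and Rpl39l, listed at 0, could not move with it. None moved with a replicate left out. With 3 libraries that step cannot shift a mean by 1 SD, so it does not show that the levels are stable. Large minus small subunit was 0.18 in the second tables, 0.0091 among genes at 1 TPM or more and ranged from -0.21 to 0.030 with each replicate left out, so it has no stable sign. Cytosolic minus mitochondrial was 1.80 in the second tables, 1.71 with a pseudocount of 1 and 1.76 among detected genes. Hosts minus others was 0.27 in the second tables and 0.40 without isoforms that cover a snoRNA, a step that could not raise it. The noncoding share was 64.3% in the second tables, 61.3% with retained introns only and 70.3% with decay isoforms added. Second minus gene tables was 0.56 and became -0.12 after rescaling; the width difference of genes with and without pseudogenes became -0.046 with no filter on low values. The spread of the median was 0.048 with library totals against 0.161. The causes of these changes were not tested. Rps27l, Rpl39 and Rpl35 rest on few counts and have wide intervals. No paired analysis was possible because there is 1 group.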
